A study of Homo sapiens with 10 samples.

Results

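The genes described here are 33 targets and regulators of NRF2, the transcription factor encoded by NFE2L2, taken from a fixed list of symbols. All 33 have a row among the 59453 genes of both count tables. They were measured by RNA-seq in 10 libraries of HAP1, a near-haploid human cell line derived from a chronic myeloid leukaemia. In the study's untreated set there are 2 clones each of WT (C2 and C11), of MUTYH-/ knockouts (C7 and C8), of OGG1-/ knockouts (C1 and C22) and of double knockouts that lack both glycosylases (DKO, C4 and C14). WT clones C2 and C11 were also collected 24 hours after 100 µM H2O2, and no knockout library received H2O2. OGG1 excises 8-oxoguanine, the common oxidation product of guanine, and MUTYH removes adenine paired with it. The knockouts were made by CRISPR-Cas9, and by the study's supplement both DKO clones come from an OGG1 clone whose number matches C22, so they are not independent of that line. Each group holds 2 libraries from 2 different clones, so p-values rest on differences between clones and not on repeat libraries of the same clone.

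NRF2 is held in the cytoplasm and sent for degradation by KEAP1, whose cysteines are modified by oxidants and electrophiles. When KEAP1 is modified, NRF2 accumulates, pairs with a small MAF protein such as MAFG and binds antioxidant response elements near its target genes. The targets make glutathione, thioredoxin and NADPH, break down haem, reduce quinones and carbonyls, and export conjugates. Several of them are also targets of other stress factors, and BACH1 represses HMOX1 at the same elements.

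The letters of the element core, TGACNNNGC, were looked for on both strands in the 1000 bases upstream of the canonical start of each gene (GENCODE release 44, GRCh38). They were found for 19 of the 33 genes (57.6%), against 32.6% of 20030 protein-coding genes. The fuller form TGACTCAGC, which contains the AP-1 letters TGACTCA, was found for 5 of the 33, SQSTM1, ME1, NQO1, TALDO1 and ABCC1, against 1.31% of protein-coding genes. The AP-1 letters alone (TGACTCA or TGAGTCA) were in 10 of the 33 windows and in 12.1% of all windows. A match is a description of letters and was not tested as a binding site. Sequences are given for these 5 genes and for GCLM, TXNRD1 and OSGIN1, which were higher after H2O2 in both WT clones. Other genes with a match are not shown, among them GCLC, which was lower in both clones. The core is in capitals, 5′ to 3′ on the strand that carries it. Windows that touch an annotated exon are cut shorter.
SQSTM1: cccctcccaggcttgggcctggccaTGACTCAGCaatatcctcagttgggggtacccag
ME1: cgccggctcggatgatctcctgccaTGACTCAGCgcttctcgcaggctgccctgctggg
NQO1: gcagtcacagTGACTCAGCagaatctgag
TALDO1: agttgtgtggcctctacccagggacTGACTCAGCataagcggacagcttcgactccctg
ABCC1: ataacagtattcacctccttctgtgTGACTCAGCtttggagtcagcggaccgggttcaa
GCLM: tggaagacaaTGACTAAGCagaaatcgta
TXNRD1: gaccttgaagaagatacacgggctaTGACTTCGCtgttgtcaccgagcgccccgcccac
OSGIN1: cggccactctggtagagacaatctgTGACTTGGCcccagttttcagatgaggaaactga
In GRCh38 the SQSTM1 stretch lies on the minus strand at chr5:179820528-179820586. The edge of its core farther from the start is 352 bases upstream, and the distances below are to the same edge. The ME1 stretch is at chr6:83431155-83431213 (minus, 137 bases upstream) and the NQO1 stretch at chr16:69726997-69727025 (minus, 455 bases upstream). The TALDO1 stretch is at chr11:746486-746544 (plus, 953 bases upstream) and the ABCC1 stretch at chr16:15949054-15949112 (plus, 537 bases upstream). GCLM has its match at chr1:93909446-93909474 (plus, 34 bases upstream), TXNRD1 at chr12:104215655-104215713 (plus, 99 bases upstream) and OSGIN1 at chr16:83952658-83952716 (plus, 557 bases upstream). HMOX1, NFE2L2, KEAP1 and MAFG have no match in this window, which says only that these letters are not there.

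Library totals ran from 22225091 to 22674964 counts. Mitochondrially encoded genes took 5.02% and 5.14% of counts in untreated WT C2 and C11, 3.38% and 3.0% in the same clones after H2O2, and 3.75% to 7.46% in the knockouts. BCR, ABL1 and VIM, fixed as markers of this line, were counted in every library. The blood markers PTPRC, SPI1, CD33, CD14, ITGB2 and HBB stayed between 0 and 11 counts, and CDH1 between 0 and 2. The epithelial marker EPCAM stood at 9 and 15 counts in WT, 27 and 33 in OGG1 knockouts and 66 and 46 in DKO, and its part in any result was not tested. OGG1 had 275 and 295 counts in untreated WT C2 and C11, 27 in OGG1 C1, 254 in OGG1 C22, and 215 and 223 in DKO C4 and C14. MUTYH had 50 to 119 counts in every library. The edits are small insertions or deletions, so transcript counts do not check the loss of protein, which the study followed by mass spectrometry.

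In untreated WT cells the NRF2 targets covered a wide range of levels. Per kilobase of exon, TXN, the small thiol reductase thioredoxin, had the top level at 121 ± 35.2 CPM per kb (mean ± SD, n = 2), where CPM is a count scaled to the library total after TMM adjustment, with 21.7 to 22.9 counts per unit. The pentose phosphate enzymes PGD (72.5 ± 2.76) and TKT (72.1 ± 0.149) followed and differed by less than their spread on this scale. TALDO1, of the same pathway, stood at 48.3 ± 4.62 CPM per kb and TXNRD1, which reduces thioredoxin, at 39.9 ± 2.11. KEAP1 was at 25.1 ± 0.554, NQO1 at 20.5 ± 2.02, NFE2L2 at 4.95 ± 0.208 and HMOX1 at 4.05 ± 0.196 CPM per kb. All annotated exons entered the length, so genes with many rare exons, such as NFE2L2, are placed low.

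A few members were barely counted. AKR1B10 had 0 counts in 9 of the 10 libraries and 1 in DKO C4. ABCC3 had at most 5 counts, GPX2 at most 13, AKR1C3 at most 15 and AKR1C2 at most 21. After the filter on low counts, 28 members entered the H2O2 comparison and 30 the genotype comparisons. AKR1C1, AKR1C2 and AKR1C3 are related in sequence, and their reads could be shared between them. NFE2L2, SQSTM1, MAFG, CBR1, EPHX1, GPX2, SRXN1, TXNRD1 and OSGIN1 overlap another protein-coding gene, and the strand setting of the counting was not given in the sources used here.

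**Figure D1:**
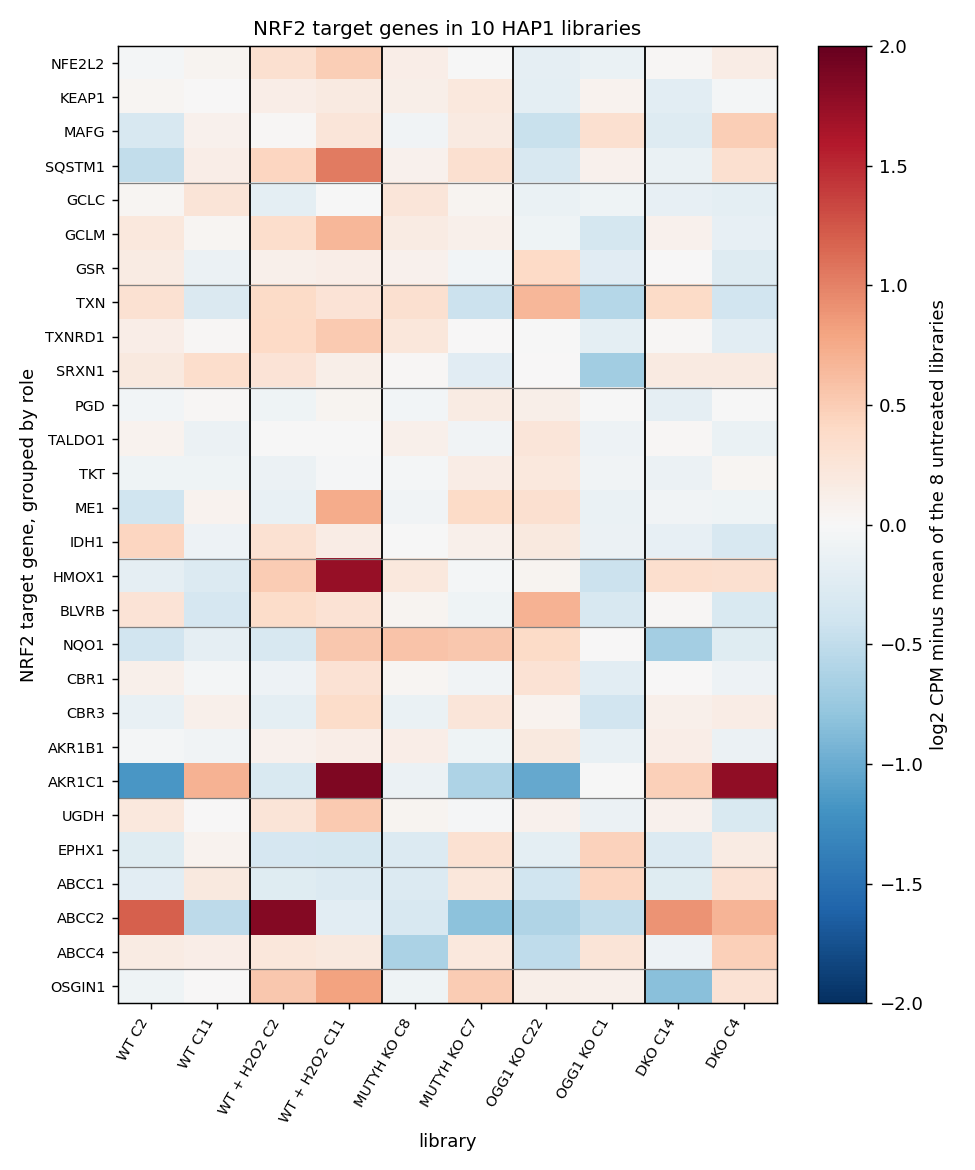
Level of the 28 NRF2 target genes that passed the H2O2 filter in each of 10 libraries, as log2 CPM minus the gene's mean over the 8 untreated libraries (colour scale), with rows grouped by role. The column of treated WT C11 is deep red for HMOX1 (log2 CPM 5.19) and AKR1C1 (1.73) and paler red for SQSTM1 (7.43). AKR1C1 and ABCC2, both at low counts, vary widely among untreated clones.

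The comparison of treated with untreated WT asks how NRF2 targets stood 24 hours after an oxidant. HMOX1, SQSTM1, OSGIN1, NFE2L2 and TXNRD1 were higher after H2O2 at an unadjusted P of at most 0.05, and no tested member was lower. These 5 are 5 of 28 members tested, against 3.57% of 16997 genes called higher and 4.07% called lower by the same rule. Members that met this threshold are described as called. HMOX1 was the only member that also moved by more than 1 on the log2 scale, which makes a differentially expressed gene in the study and was met by 1.75% of genes. The median log2 fold change was 0.20 over the 28 members tested (0.08 without treated C11) and 0.00 over all genes. No gene of the table passed Benjamini-Hochberg adjustment in this fit (0%; edgeR, 4 libraries), while 1297 genes met P of at most 0.05 before adjustment. The DESeq2 Wald test gave 75 genes past adjustment, none of them a member.

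Untreated and treated libraries came from the same clones as separate samples, and a fit with the clone as a block was made beside the first. With the block, 11 members were higher at P of at most 0.05 and none was lower, against 9.61% of genes higher and 10.5% lower. Those joining were NQO1, GCLM, TXN, ME1, AKR1C1 and BLVRB. HMOX1 and AKR1C1 passed the study's criterion with the block, which 2.78% of genes passed. HMOX1 and SQSTM1 passed an adjusted p of 0.05 with the block, as did 2.57% of genes. The block fit has 1 residual degree of freedom. Without the treated C11 library no member was called in the fit without the block. Treated libraries also had the lower mitochondrial shares given above, whose part was not tested. The sources used here do not say whether all 4 WT libraries were made in the same preparation.

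HMOX1 (chr22:35380361-35394214, plus strand) encodes haem oxygenase 1, which opens haem to biliverdin, iron and carbon monoxide. Its level was 3.28 log2 CPM (216 counts) in untreated C2 and 3.18 (203) in untreated C11, and 3.97 (339) and 5.19 (830) in the same clones after H2O2. Both treated libraries lay above all 8 untreated libraries, which reached at most 3.79 log2 CPM. The fold change was 2.78 (log2 1.48 ± 0.42, SE, edgeR adjusted p = 0.638), and 2.57 with the clone block (log2 1.36 ± 0.25, adjusted p = 0.0175). Within clones HMOX1 rose 1.61-fold in C2 and 4.0-fold in C11. Without treated C11 the log2 fold change was 0.73 and was not called. BLVRB, which reduces biliverdin to bilirubin, had 4.86 and 4.26 log2 CPM in untreated C2 and C11 and 4.96 and 4.89 after H2O2. It moved by log2 0.10 in C2 and 0.64 in C11 (1.56-fold) and was called only with the block (edgeR adjusted p = 0.235).

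Among the factor, its inhibitor and its partners, SQSTM1 gave the most even change. SQSTM1 (chr5:179806398-179838078, plus strand) encodes p62, an autophagy receptor that binds KEAP1 and is itself an NRF2 target. Untreated C2 and C11 had 5.90 and 6.53 log2 CPM, and the treated clones 6.83 and 7.43. The untreated clones differed, and each rose by a similar amount, 1.91-fold in C2 and 1.86-fold in C11. The log2 fold change was 0.91 ± 0.29 without the block (edgeR adjusted p = 0.638) and 0.91 ± 0.12 with it (adjusted p = 0.00307). Without treated C11 it was 0.57 in the unblocked fit and was not called. NFE2L2 itself went from 6.17 and 6.26 log2 CPM to 6.54 and 6.71, a fold change of 1.32 (log2 0.41 ± 0.14, edgeR adjusted p = 0.638), with 1.29-fold in C2 and 1.37-fold in C11. The call for NFE2L2 was lost without 3 of the 4 libraries in turn, untreated C2, treated C2 or treated C11. KEAP1 stood at 6.51 and 6.47 log2 CPM in untreated C2 and C11 and 6.60 and 6.64 after H2O2 (log2 0.13 ± 0.12, edgeR adjusted p = 0.796). MAFG differed by log2 0.35 in C2 and 0.15 in C11 and was not called.

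In the thioredoxin arm TXNRD1 had 8.12 and 8.01 log2 CPM in untreated C2 and C11 and 8.39 and 8.51 after H2O2. All treated values lay above the untreated ones, with a fold change of 1.30 (log2 0.38 ± 0.13, edgeR adjusted p = 0.638), and the call was lost without untreated C11, treated C2 or treated C11. TXN was at 7.20 and 6.60 log2 CPM in untreated C2 and C11 and 7.28 and 7.17 after H2O2. C11 rose 1.48-fold to the level that C2 already had untreated, and C2 moved 1.06-fold. SRXN1, a sulfiredoxin that repairs over-oxidised peroxiredoxins and is a frequently used NRF2 reporter, had 81 and 91 counts in untreated C2 and C11 and 83 and 78 after H2O2, with a log2 fold change of -0.09 ± 0.28 (edgeR adjusted p = 0.949).

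In the glutathione arm GCLM and GCLC encode the subunits of glutamate-cysteine ligase, the rate-limiting enzyme of glutathione synthesis. The modifier subunit GCLM had 5.14 and 4.98 log2 CPM in untreated C2 and C11 and 5.29 and 5.60 after H2O2 (log2 fold change 0.39 ± 0.17, edgeR adjusted p = 0.638, and 0.38 ± 0.15 with the clone block, where it was called, adjusted p = 0.170). The change of GCLM was 1.11-fold in C2 and 1.54-fold in C11. The catalytic subunit GCLC had 5.87 and 6.08 log2 CPM in untreated C2 and C11 and 5.63 and 5.82 after H2O2, lower in both clones. Its log2 fold change of -0.25 ± 0.16 was not called in either fit (edgeR adjusted p = 0.702). The difference between the subunits was not tested. GSR, which regenerates reduced glutathione, differed by log2 -0.05 in C2 and 0.25 in C11.

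NQO1 (chr16:69706996-69726668, minus strand), a quinone reductase and a standard NRF2 readout, was higher after H2O2 in C11 and near its untreated level in C2. NQO1 had 5.83 log2 CPM (1272 counts) in untreated C2 and 5.90 (1300) after H2O2, and 6.03 (1471) in untreated C11 and 6.76 (2484) after H2O2. The treated C2 library lay below untreated C11, so the groups overlapped. The log2 fold change was 0.46 ± 0.30 without the block (edgeR adjusted p = 0.708) and 0.40 ± 0.16 with it, where it was called (adjusted p = 0.176). Of the aldo-keto and carbonyl reductases, AKR1C1 went from 7 to 14 counts in C2 and from 31 to 74 in C11, and it was called only with the block (log2 fold change 1.17 ± 0.38, edgeR adjusted p = 0.120). AKR1B1 differed by log2 0.12 and 0.20 in C2 and C11, CBR1 by -0.20 and 0.33, and CBR3 by -0.04 and 0.28, none of them called.

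Among enzymes that supply NADPH, ME1, the cytosolic malic enzyme, had 5.95 and 6.42 log2 CPM in untreated C2 and C11 and 6.20 and 7.09 after H2O2, 1.19-fold and 1.59-fold. It was called with the clone block only (log2 fold change 0.46 ± 0.14, edgeR adjusted p = 0.0988). PGD, TALDO1 and TKT moved by log2 -0.08 to 0.11 in the 2 clones, and IDH1, which makes NADPH in the cytosol, by -0.13 in C2 and 0.26 in C11. OSGIN1, an oxidative stress growth inhibitor, had 189 and 203 counts in untreated C2 and C11 and 284 and 360 after H2O2. It rose 1.54-fold in C2 and 1.74-fold in C11 (log2 fold change 0.72 ± 0.22, edgeR adjusted p = 0.638). Its call was lost without untreated C2 or treated C11 and in a fit of all 10 libraries.

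The genes for conjugation and export varied in direction. UGDH, which makes UDP-glucuronic acid, moved by log2 0.04 in C2 and 0.53 in C11, and EPHX1, a microsomal epoxide hydrolase, by -0.08 and -0.43. ABCC1, an exporter of glutathione conjugates, was at 7.07 and 7.48 log2 CPM in untreated C2 and C11 and 7.05 and 7.01 after H2O2. This is a change of -0.02 in C2 and -0.48 in C11. ABCC4 differed by 0.05 and 0.07, and ABCC2 went from 60 to 92 counts in C2 and from 17 to 22 in C11. None of these genes was called in either fit.

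The 2 clones differed in how far the members moved. Over 1.5-fold higher after H2O2 were 5 of 28 members in C2 (HMOX1, SQSTM1, OSGIN1, AKR1C1 and ABCC2) and 8 in C11 (HMOX1, AKR1C1, SQSTM1, OSGIN1, NQO1, ME1, BLVRB and GCLM). Of all genes tested, 5.44% passed this fold in C2 and 7.02% in C11. No member was over 1.5-fold lower in either clone, against 8.26% of genes in C2 and 12.0% in C11. HMOX1, SQSTM1, OSGIN1 and AKR1C1 passed in both clones, as 1.89% of genes did. In C2 the log2 change was 0.87 ± 0.67 (SE of counting error) for AKR1C1 and 0.64 ± 0.24 for ABCC2, both at low counts. For SQSTM1 it was 0.93 ± 0.05. The median log2 change of the 28 members was 0.08 in C2 and 0.30 in C11, beside 0.01 in each clone over all genes. The change was larger in C11 for 21 of 28 members and for 50.9% of all genes. Each clone has 1 library on each side, so this is a description with counting error only, and the difference between clones was not tested.

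**Figure D2:**
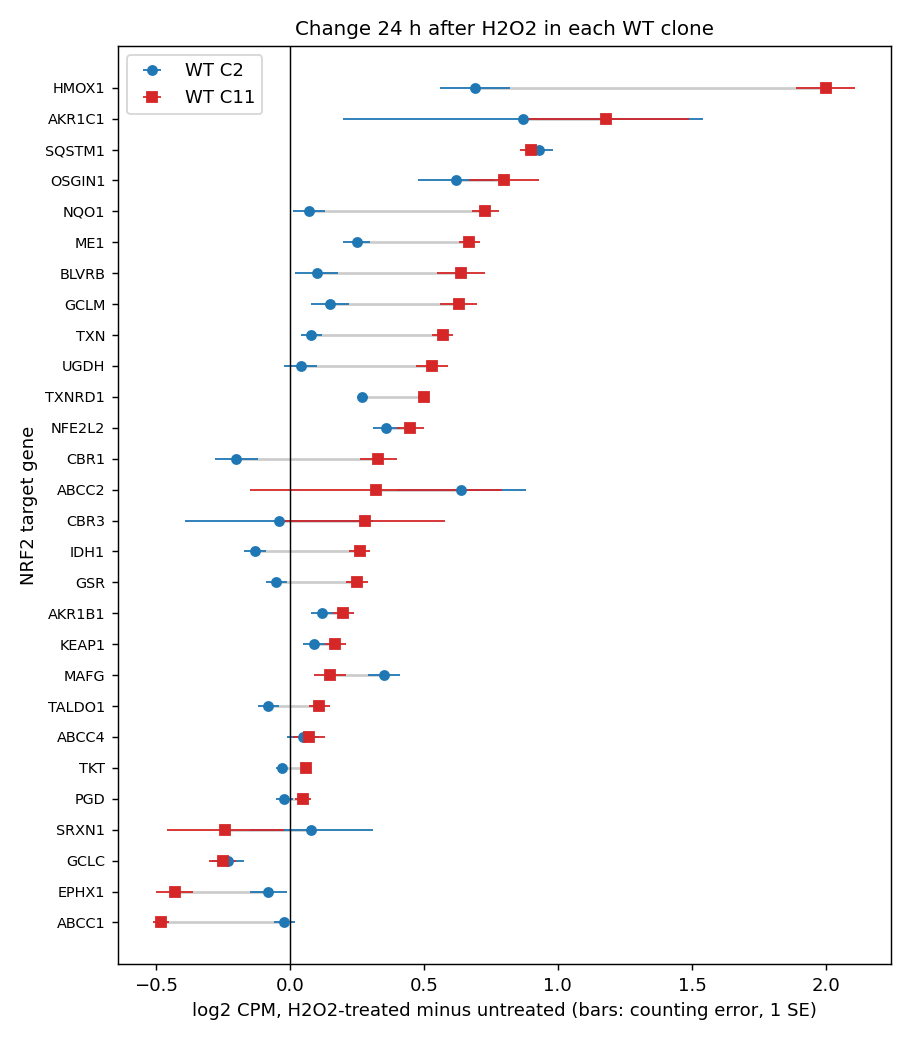
Change in log2 CPM from untreated to H2O2-treated WT for 28 NRF2 target genes, with clone C2 as blue circles, clone C11 as red squares and bars for 1 SE of counting error. SQSTM1 moved alike in both clones (0.93 and 0.90), HMOX1 moved by 0.69 in C2 and 2.0 in C11, and NQO1 by 0.07 and 0.73.

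Other genes of the pathway were read from a second list of 14 regulators and 20 further targets. Of 13 regulators tested after H2O2, MAFF (log2 fold change 1.25 ± 0.29, edgeR adjusted p = 0.638), a small MAF partner, and BACH2 (1.22 ± 0.42, adjusted p = 0.638), a relative of BACH1, were higher. NFE2L3, a relative of NFE2L2, was lower (-0.47 ± 0.18, edgeR adjusted p = 0.638). Of 17 further targets tested, FTH1, the ferritin heavy chain, was higher without the block (0.58 ± 0.15, edgeR adjusted p = 0.638). These shares, 2 and 1 of 13 regulators and 1 of 17 targets, stand beside the 3.57% of all genes called higher and 4.07% called lower. With the clone block FTL, the ferritin light chain, MAFF and FTH1 passed adjustment (edgeR, adjusted p = 0.0115, 0.0300 and 0.0412). SLC7A11, the cystine importer subunit, had 1887 and 2227 counts in untreated C2 and C11 and 2034 and 3879 after H2O2, and was called only with the block (log2 fold change 0.46 ± 0.15, edgeR adjusted p = 0.125). BACH1 and GSTM3 were also called higher, and ABCB6 lower, with the block only. In all, 3 of 13 regulators and 4 of 17 targets were higher with the block and 1 of each was lower, beside 9.61% and 10.5% of all genes.

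The comparison of each untreated knockout with untreated WT asks whether losing the glycosylases goes with a change in NRF2 targets. Few members moved. In the fit without a block NQO1 was higher in MUTYH knockouts and in OGG1 knockouts and HMOX1 was higher in DKO, at P of at most 0.05. In each comparison this is 1 of 30 members tested. No member was lower in this fit, which did not hold under every other setting. Among 17881 genes tested, 0.666% were called higher and 1.06% lower in MUTYH knockouts, 1.39% and 1.35% in OGG1 knockouts, and 1.83% and 1.11% in DKO. Without a block no member passed the study's criterion, which 1.19%, 1.67% and 1.77% of genes passed in the same order. No member passed adjustment, as 0.00559% of genes did in MUTYH knockouts and 0% in OGG1 knockouts and in DKO, where 490 and 526 genes met P of at most 0.05 before adjustment. The DESeq2 Wald test gave 11, 12 and 14 genes past adjustment and no member. The median log2 fold change of the 30 members was 0.07, 0.05 and 0.04, beside 0.01, 0.01 and 0.00 over all genes. When each library was left out in turn the 3 medians ran from -0.01 to 0.14, from -0.12 to 0.02 and from -0.01 to 0.06, so each had both signs among these fits. The 3 comparisons share the WT libraries. Of the members not called, the widest log2 differences belonged to genes of low count, such as ABCC2 (-1.19 ± 0.59 in MUTYH and -1.20 ± 0.59 in OGG1 knockouts) and AKR1C1 (1.31 ± 0.76 in DKO).

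NQO1 had 5.83 and 6.03 log2 CPM in WT C2 and C11, 6.76 and 6.78 in MUTYH C7 and C8, 6.22 and 6.60 in OGG1 C1 and C22, and 5.98 and 5.54 in DKO C4 and C14. All 4 single knockout libraries lay above both WT libraries, and DKO C14 was the lowest of the 8. In MUTYH knockouts NQO1 was 1.80-fold higher (log2 0.85 ± 0.20, edgeR adjusted p = 1.00), and the call held without each of the 4 libraries in turn, with log2 values of 0.74 to 0.96. In OGG1 knockouts it was 1.41-fold higher (0.49 ± 0.20, edgeR adjusted p = 0.999), and the call was lost without WT C2, WT C11 or OGG1 C22. In DKO it was 0.903-fold of WT (-0.15 ± 0.20, not called). Treated WT C11 had an NQO1 level of 6.76 log2 CPM, beside 6.76 and 6.78 in the untreated MUTYH knockouts.

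DKO was then set against each single knockout, a comparison chosen after the values were seen. NQO1 was lower in DKO than in MUTYH knockouts (log2 -1.0 ± 0.20, edgeR adjusted p = 0.753) and than in OGG1 knockouts (-0.64 ± 0.20, adjusted p = 1.00). ABCC2, an apical exporter of conjugates, was higher in DKO than in MUTYH knockouts (1.44 ± 0.59, edgeR adjusted p = 1.00) and than in OGG1 knockouts (1.44 ± 0.59, adjusted p = 1.00). NQO1 and ABCC2 were the 2 members called of 30 in either contrast, where 3.43% and 2.62% of genes were called. ABCC2 had 60 and 17 counts in WT C2 and C11, 13 and 20 in MUTYH C7 and C8, 17 and 16 in OGG1 C1 and C22, and 41 and 50 in DKO C4 and C14. WT C2 was the highest of the 8 libraries and WT C11 was among the lowest.

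HMOX1 had 216 and 203 counts in WT C2 and C11, 230 and 287 in MUTYH C7 and C8, 179 and 254 in OGG1 C1 and C22, and 301 and 314 in DKO C4 and C14. Both DKO libraries lay above the other 6, at 3.77 and 3.79 log2 CPM. The fold change in DKO was 1.47 (log2 0.56 ± 0.23, edgeR adjusted p = 1.00). This call was lost without any of the 4 libraries in turn and without a filter on low counts. In MUTYH and OGG1 knockouts the log2 difference was 0.33 ± 0.23 and 0.06 ± 0.23, neither called.

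NFE2L2 and KEAP1 were not called in any knockout. NFE2L2 had 6.21 and 6.34 log2 CPM in MUTYH C7 and C8, 6.08 and 6.04 in OGG1 C1 and C22 and 6.36 and 6.24 in DKO C4 and C14, with log2 differences of 0.08 ± 0.13, -0.15 ± 0.13 and 0.10 ± 0.13 in MUTYH, OGG1 and DKO. KEAP1 had 6.67 and 6.58, 6.53 and 6.27, and 6.43 and 6.26 log2 CPM in the same order of libraries, with log2 differences of 0.15 ± 0.15, -0.08 ± 0.15 and -0.13 ± 0.15. NFE2L2 in OGG1 knockouts and KEAP1 in DKO lay under both WT libraries, and KEAP1 in MUTYH knockouts above both.

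No member of the thioredoxin or glutathione arm was called in a knockout without a block. SRXN1 had 58 and 73 counts in MUTYH C7 and C8, 42 and 71 in OGG1 C1 and C22 and 79 and 82 in DKO C4 and C14, against 81 and 91 in WT C2 and C11, with log2 differences of -0.37 ± 0.32, -0.59 ± 0.32 and -0.09 ± 0.32. TXNRD1 had 8.0 and 8.22, 7.80 and 7.98, and 7.77 and 8.01 log2 CPM in the same order of knockout libraries, with log2 differences of 0.06 ± 0.16, -0.17 ± 0.16 and -0.16 ± 0.16. Its OGG1 knockout and DKO libraries reached at most 8.01, the rounded level of WT C11. GCLC had 5.88 and 6.07 log2 CPM in MUTYH C7 and C8, 5.74 and 5.69 in OGG1 C1 and C22 and 5.63 and 5.67 in DKO C4 and C14. It stood below both WT libraries in OGG1 knockouts (-0.26 ± 0.15) and DKO (-0.32 ± 0.15), and its log2 difference was 0.01 ± 0.15 in MUTYH knockouts. GCLM had 708 and 781 counts in MUTYH C7 and C8, 532 and 645 in OGG1 C1 and C22 and 602 and 743 in DKO C4 and C14, against 786 and 707 in WT C2 and C11. Its OGG1 knockout libraries lay below both WT libraries (-0.33 ± 0.17).

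For several members called only after H2O2 or only with a block, the clones of some knockouts differed. TXN had 6.46 and 7.21 log2 CPM in MUTYH C7 and C8, 6.32 and 7.55 in OGG1 C1 and C22 and 6.50 and 7.28 in DKO C4 and C14. BLVRB had 4.51 and 4.65, 4.27 and 5.29, and 4.29 and 4.62 log2 CPM in the same order. In each genotype C8, C22 or C14 was the higher clone for both genes. ME1 had 6.73 and 6.28, 6.22 and 6.68, and 6.27 and 6.29 log2 CPM in that order, with no set of clones always higher. OSGIN1 had 276 and 194 counts in MUTYH C7 and C8, 212 and 219 in OGG1 C1 and C22 and 243 and 114 in DKO C4 and C14. AKR1C1 had 11 and 17, 18 and 8, and 67 and 27 counts in the same order, against 7 and 31 in WT C2 and C11. The lower DKO library of AKR1C1 lay below WT C11, so the groups overlapped.

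**Figure D3:**
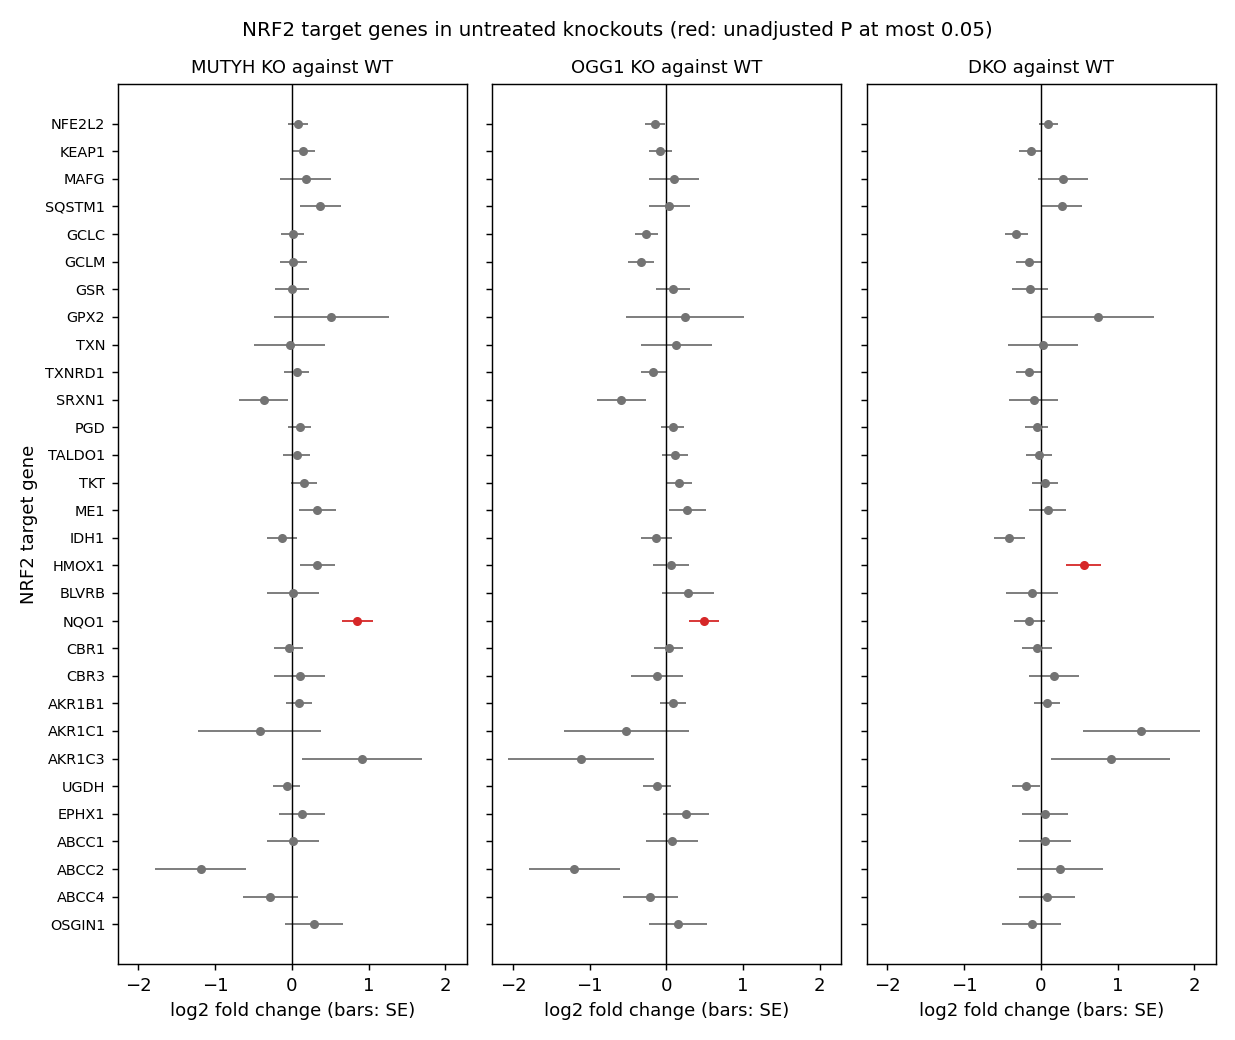
Log2 fold change of 30 NRF2 target genes in untreated MUTYH knockouts, OGG1 knockouts and DKO against untreated WT (2 clones each), with bars for the SE from edgeR and red for an unadjusted P of at most 0.05. The red points are NQO1 in MUTYH (0.85) and OGG1 knockouts (0.49) and HMOX1 in DKO (0.56).

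Of the other pathway genes, FTL was the only gene called in the knockouts without a block, 1 of 17 further targets tested in each. FTL was higher in MUTYH knockouts (log2 0.91 ± 0.26, edgeR adjusted p = 1.00), OGG1 knockouts (0.84 ± 0.26, adjusted p = 0.999) and DKO (0.70 ± 0.26, adjusted p = 1.00). FTL had 4023 and 6281 counts in WT C2 and C11 and 7736 to 10850 in the 6 knockouts, above both. None of the 13 regulators tested was called in any knockout. Beside these counts, 0.666% of all genes were called higher and 1.06% lower in MUTYH knockouts. The shares were 1.39% and 1.35% in OGG1 knockouts, and 1.83% and 1.11% in DKO. FTL was not followed in the fits with libraries left out.

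**Figure D4:**
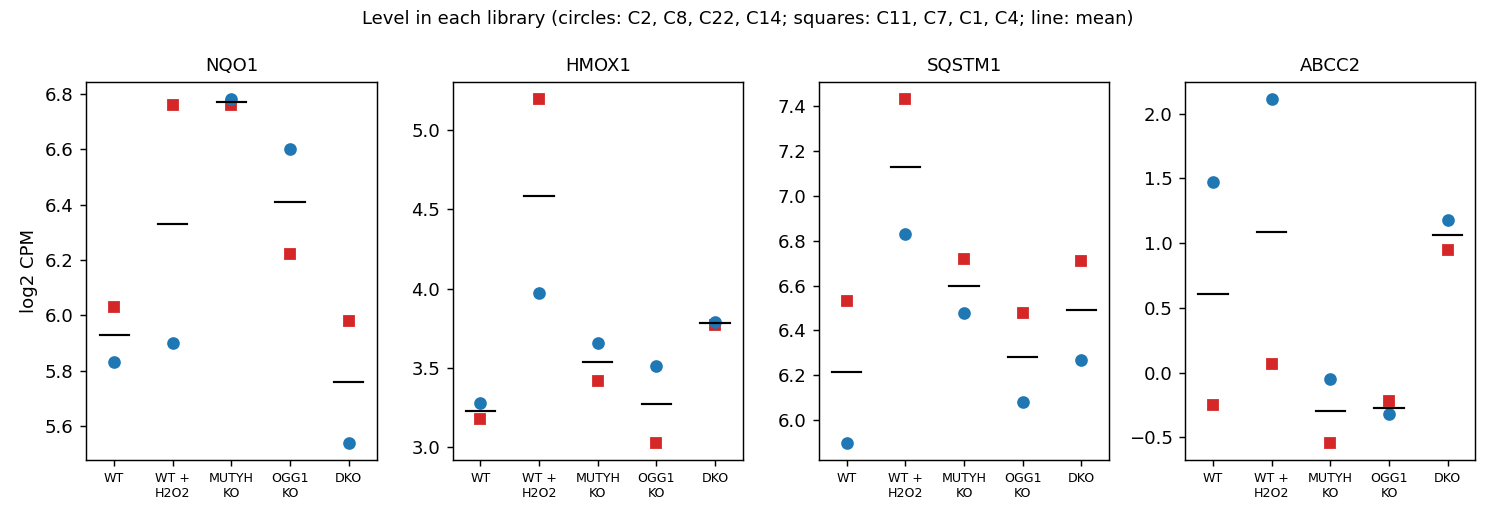
Log2 CPM of NQO1, HMOX1, SQSTM1 and ABCC2 in each library (circles for C2, C8, C22 and C14, squares for C11, C7, C1 and C4, black line for the mean of 2), with a separate vertical scale for each gene. NQO1 was at 6.76 and 6.78 in MUTYH knockouts and 5.98 and 5.54 in DKO, and treated WT C11 lay above all other libraries for HMOX1 and SQSTM1.

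Part of the spread between clones ran across the genotypes. The 8 untreated libraries fell into a set of WT C2, MUTYH C8, OGG1 C22 and DKO C14 and a set of WT C11, MUTYH C7, OGG1 C1 and DKO C4. These sets were found in the data, and the labels name no batch. The mitochondrial share of counts was 3.75% to 5.02% in the first set and 5.14% to 7.46% in the second, with the WT clones close to each other (5.02% and 5.14%). Treated C11 was at 3.0% and treated C2 at 3.38%, both below the range of the first set. The part of this share in the levels of the members was not tested. With no overlap between sets, TXN, BLVRB, GSR, UGDH, AKR1B1, CBR1 and TALDO1 were higher in the set with WT C2 and ABCC1, MAFG and EPHX1 were lower. These are 7 and 3 of 30 members tested, against 15.1% and 14.1% of genes, and are given as a description. TXN ranged from 7.20 to 7.55 log2 CPM in the set with WT C2 and from 6.32 to 6.60 in the other. ABCC1 ranged from 6.88 to 7.07 and from 7.48 to 7.71 in the same order. For 8 of these 10 genes treated C11 was nearer to the mean of the set with WT C2 than to that of its own, and for 5 it lay within that set's range. The same shares over all genes without overlap were not computed, so these counts have no background. UGDH in treated C11 (6.15) lay above both sets and EPHX1 (5.12) below both. TXN in treated C11 was at 7.17, ABCC1 at 7.01 and BLVRB at 4.89 log2 CPM. Over 18124 genes the difference between sets within the knockouts had a Pearson correlation of 0.33 with the H2O2 change in C11 and of -0.08 with that in C2. This is across genes, which are not independent replicates, and how much of the H2O2 change in C11 it accounts for was not tested.

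With the set as a block in the genotype fits, further members passed P of at most 0.05. Since the sets were found in the same levels, P-values with this block can be too small, and these calls are a description. In MUTYH knockouts SQSTM1 joined NQO1 as higher (log2 0.40 ± 0.11, edgeR adjusted p = 0.997), against 2.09% of genes higher and 2.37% lower. In OGG1 knockouts GCLM was lower (-0.33 ± 0.11, edgeR adjusted p = 0.679) beside the higher NQO1, against 3.86% higher and 3.32% lower. In DKO, AKR1C1 (1.37 ± 0.55, edgeR adjusted p = 0.660) and SQSTM1 (0.28 ± 0.11, adjusted p = 0.645) were higher with HMOX1, and GCLC (-0.32 ± 0.12, adjusted p = 0.626) and IDH1 (-0.40 ± 0.15, adjusted p = 0.621) lower, against 3.94% higher and 3.37% lower. AKR1C1 then passed the study's criterion in DKO, as 2.44% of genes did. Of the further targets, FTL was called higher in all 3 knockouts with the set block too, and 1 more gene of the 17 was called in each. FTH1 was higher in MUTYH knockouts (0.42 ± 0.12, edgeR adjusted p = 0.997), TRIM16L was higher in OGG1 knockouts (0.50 ± 0.19, adjusted p = 0.680), and PIR was lower in DKO (-0.32 ± 0.11, adjusted p = 0.617). SQSTM1 had 5.90 and 6.53 log2 CPM in WT C2 and C11, 6.48 and 6.72 in MUTYH C8 and C7, 6.08 and 6.48 in OGG1 C22 and C1, and 6.27 and 6.71 in DKO C14 and C4. In each genotype the clone of the set with WT C2 was the lower. IDH1 had 3304 and 2303 counts in WT C2 and C11, 2936 and 2795 in the same clones after H2O2, 2483 and 2561 in MUTYH C8 and C7, 2834 and 2227 in OGG1 C22 and C1, and 2248 and 1949 in DKO C14 and C4. Only in DKO were both clones under the lower WT library.

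**Figure D5:**
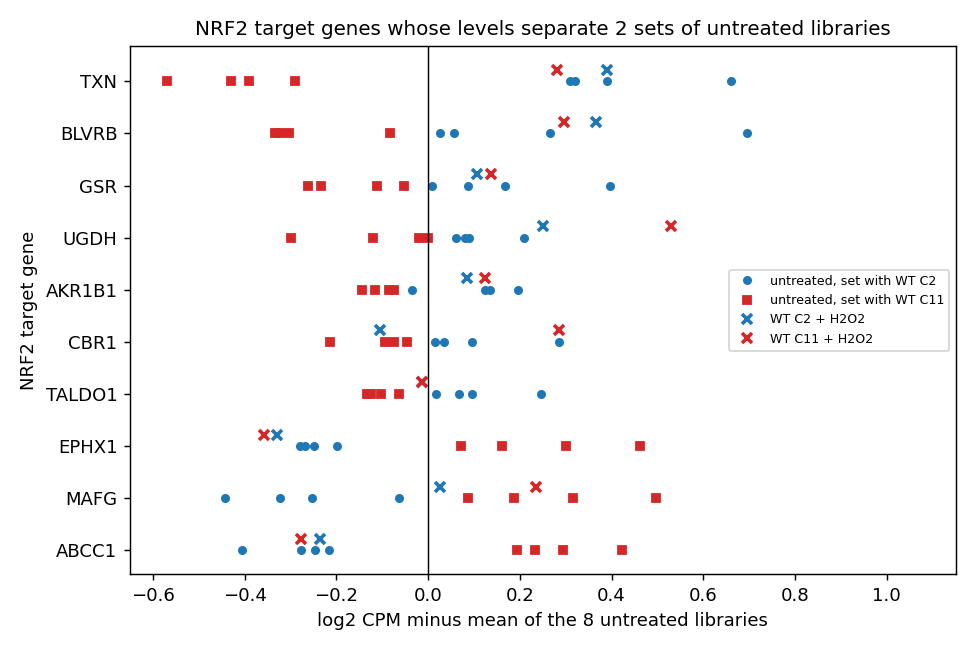
Log2 CPM, minus the mean of the 8 untreated libraries, of the 10 NRF2 target genes whose levels did not overlap between the set with WT C2 (blue circles) and the set with WT C11 (red squares), with crosses for the H2O2-treated libraries. Treated C11 (red cross) lies on the side of the set with WT C2 for TXN, BLVRB, GSR, UGDH, AKR1B1, CBR1, EPHX1 and ABCC1.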

How the data were processed

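The authors aligned DNBseq reads of total RNA with HISAT2 2.2.1 to GRCh38 and counted them per gene with featureCounts (Ensembl annotation). The deposited values are raw counts per gene, 1 column per library, and the untreated WT columns are the same in both tables (0 differing rows). Strand and multi-mapping settings were not given in the sources used here. From these counts, edgeR 4.0.16 (R 4.3.3) was run on the whole table with TMM factors, filterByExpr, and the quasi-likelihood test of glmQLFit with legacy=TRUE, after the study's own design and criterion (unadjusted P of at most 0.05, log2 fold change beyond 1). P-values were adjusted by Benjamini-Hochberg over all genes tested. SE is the absolute log2 fold change divided by the square root of F. Log2 CPM used a prior count of 2. H2O2 was fitted in 4 WT libraries and genotypes in 8 untreated libraries. Clone numbers pair treated with untreated WT, since the same clone was sampled: the C11 minus C2 difference correlated at 0.68 across 16997 genes. The comparisons without a block were also run on simulated counts with no clone or set differences, which does not check the block fits or the interaction. DESeq2 1.42.0 was an alternative. After TMM scaling 21.7 to 22.9 counts make 1 CPM, and intervals from counts cover counting error only.

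The members and lists were chosen with earlier results of these data known. Values in every library are given for NFE2L2, KEAP1, HMOX1, NQO1, GCLC, GCLM, TXNRD1, SRXN1 and for any member called in a comparison, with or without a block. Other members are given by range. Positions and exon lengths are from GENCODE release 44.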

Additional observations from a re-analysis of the deposited data

Results flagged for a closer look

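NQO1 and ABCC2 changed with MUTYH loss differently in clones that lack OGG1 and in clones that have it. For NQO1 the change with MUTYH loss differed by -1.49 ± 0.28 on the log2 scale where OGG1 was also lost (edgeR interaction term, past an unadjusted P of 0.05, adjusted p = 1.00, higher with MUTYH loss in both MUTYH clones and lower in both DKO clones). Without each of the 8 libraries in turn the NQO1 value ran from -1.73 to -1.30. For ABCC2 the difference was 2.64 ± 0.83 (edgeR interaction term, past an unadjusted P of 0.05, adjusted p = 1.00) at 13 to 60 untreated counts, and without WT C2 it was 1.47 and no longer passed. The interaction was called at P of at most 0.05 in 2.62% of genes, it was chosen after the values were seen, and both DKO clones share a parent line.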

How the results depend on the processing

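Of 252 values under other settings, 207 kept direction and side of the threshold (single genes) or stayed within 1.5 times (counts) or 1 SD (medians). Another 21 lost their call, 24 moved and 0 single-gene values reversed. Reversal was scored for single genes only. Medians near 0 changed sign in some fits, such as the OGG1 knockout median, 0.05 in the main fit and -0.12 without OGG1 C22. After H2O2, 5 members were higher, 11 with the clone block, and 0 to 5 when each library was left out. In MUTYH knockouts 1 member was higher, 2 with the set block and 1 to 2 when libraries were left out. In OGG1 knockouts 1 was higher, 0 in a fit of only the 4 libraries compared and 0 to 2 when libraries were left out. In DKO 1 was higher, 3 with the set block, 0 with no filter on low counts and 0 to 1 when libraries were left out. The causes were not tested. DESeq2 size factors, the DESeq2 Wald test, legacy=FALSE and a minimum of 10 counts moved none of these 4 counts by over 1.5 times. No member was lower in the 4 main comparisons. With no filter 1 was lower in MUTYH knockouts, and with the set block 1 in OGG1 knockouts and 2 in DKO. Leaving out a library also changed the count of lower members in each of the 4 comparisons. The counts of members over 1.5-fold higher within clones were also computed without TMM and with a prior count of 0.5, chosen after seeing the data. With 2 clones a group, a left-out fit assumes that the lone library varies like the others. ABCC3, AKR1C2 and AKR1B10 had too few counts to be compared at this depth.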
